A study of Schizosaccharomyces pombe with 4 samples.

Results

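In RNA-seq of the fission yeast Schizosaccharomyces pombe, 52 protein-coding genes lay moderately lower in libraries labelled as a deletion of loz1 than in wild type. They were chosen from 7092 annotated genes by their measured values. A member had a systematic identifier of a coding gene, a mean over all 4 libraries of at least 5 FPKM, both labelled deletion values below both wild-type values, and a place at least 100 kb from a chromosome end. FPKM is a fragment count scaled to the length of the transcript and the size of the library. The ratio of group means of FPKM + 1, taken as wild type over labelled deletion, had to be from 2 to below 4. These values selected the genes, so the difference between the groups is described here and not tested.

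The labels name 2 libraries of the genotype loz1 delta and 2 of wild type. Total RNA came from cells of both genotypes grown in a zinc-limited minimal medium to which zinc was added back, to an optical density of about 6.0. The added zinc is written as 100 mM, a unit that could not be checked, and the labels name no further allele, marker or mating type. Every library therefore comes from zinc-supplied cells, and no zinc-starved library enters any value. No label states whether the libraries of a group are separate cultures. The p-values therefore set the group difference against the spread of these samples only, and that spread may be technical.

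Loz1 is a zinc finger protein that represses genes of zinc uptake when zinc is plentiful. Fission yeast cells of the mating types M and P conjugate when nutrients run out, after each type has sensed the pheromone of the other through a G protein and a MAP kinase cascade. The transcription factor Ste11 switches on the genes of conjugation by binding a sequence called the TR box.

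The depth estimated from the width of the deposited error bounds was 1.87e+07 and 1.99e+07 fragments in the labelled deletion libraries, against 1.75e+07 and 1.76e+07 in wild type. The loz1 transcript was higher in the libraries labelled as its deletion, and why was not tested. Labelled deletion libraries held 56.4 and 56.0 FPKM, against 6.87 and 5.81 FPKM in wild type, so every direction below is one between libraries as labelled. Of 6315 genes tested with limma, 276 were lower in the labelled deletion (4.37%) and 753 higher (11.9%) at an adjusted p under 0.05. Rescaling the libraries by the median ratio changed this split to 319 lower and 422 higher.

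Of the 52 genes, 51 could be tested and 42 were called lower, beside the background of 4.37%. Nothing is read from that count, because the same contrast chose the genes. Without labelled deletion replicate 1 only 2 were called and without replicate 2 only 1, and without wild-type replicate 1 or 2 the count was 50 or 47. The median log2 difference of the members was -1.26, and that of all genes tested was 0.131. The gene left untested was SPBC3E7.17, whose transcript of 183 nt is shorter than the 200 nt required.

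The 52 genes fell into 8 groups of roles. Those of pheromone response and conjugation numbered 7, and 8 had names or roles linked to meiosis and recombination. A further 4 encode stress proteins and chaperones, 6 proteins of mitochondria, iron and carbon metabolism, 3 transporters, 4 kinases, GTPase regulators or zinc finger proteins, and 7 enzymes or proteins of RNA and translation. A last group of 13 had no annotated function. The products of mug168, mug108, meu25 and mug42, grouped with meiosis by name, are annotated without one too. Mean levels spanned 4.57 to 6888 FPKM in the labelled deletion, with a median of 34.6 FPKM, and 12.3 to 15241 FPKM in wild type, with a median of 80.6 FPKM.

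**Figure D1:**
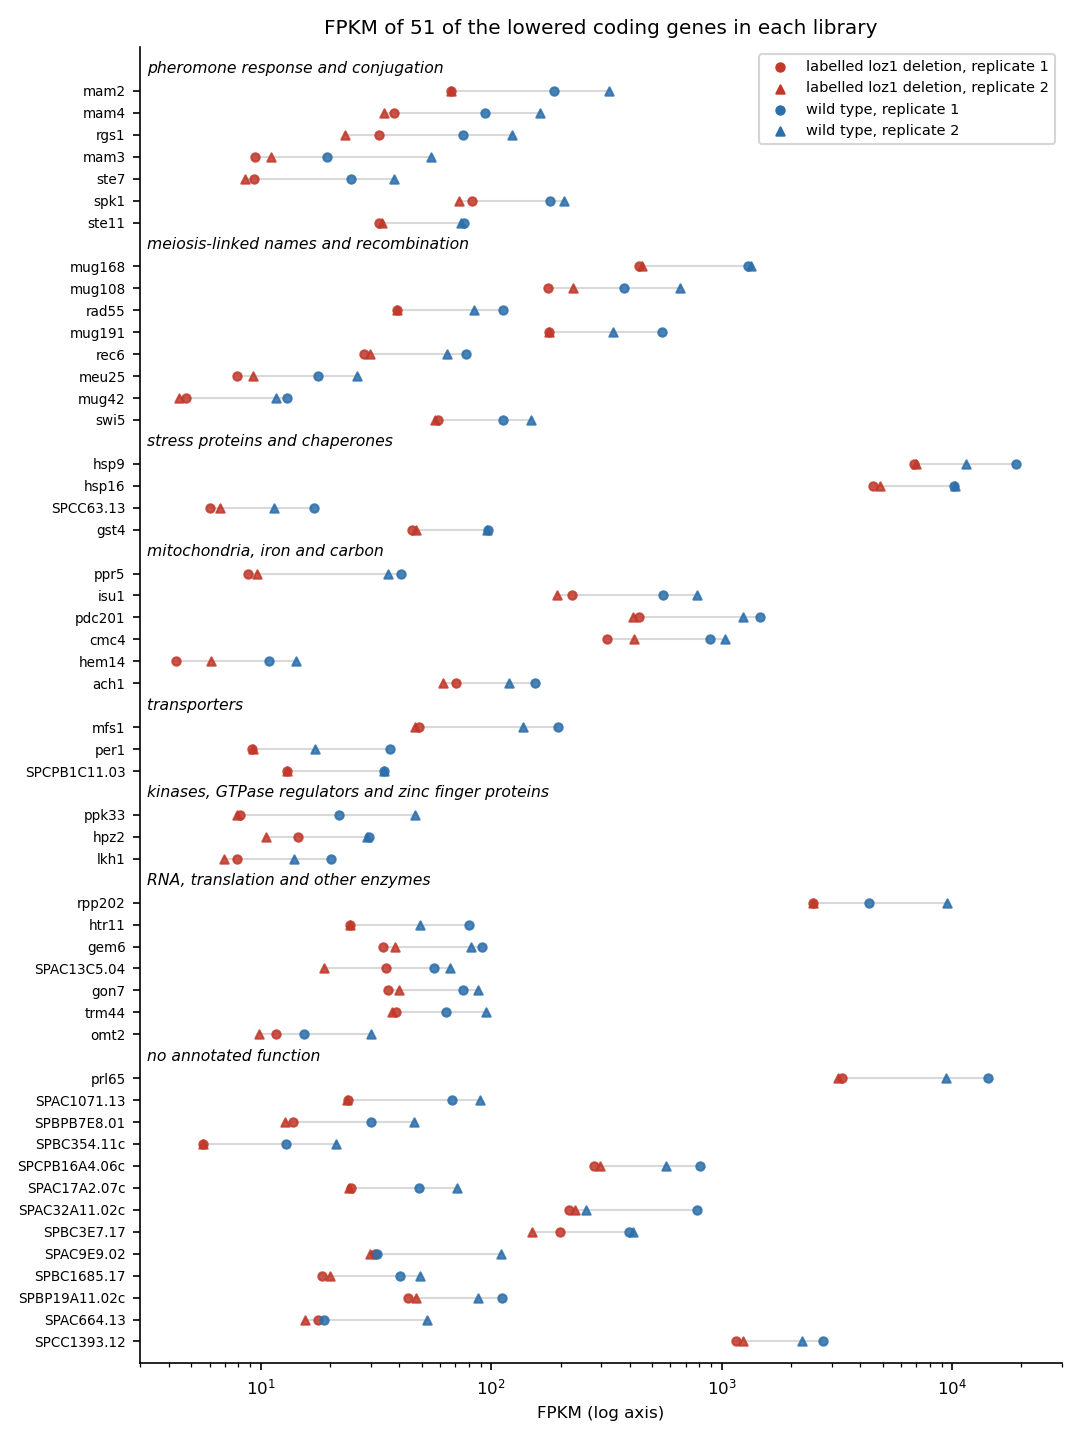
FPKM of 51 of the 52 genes (log axis) in the 2 labelled loz1 deletion libraries (red) and the 2 wild-type libraries (blue), circles for replicate 1 and triangles for replicate 2, grouped by role. Red lies left of blue in every row, as the choice of genes requires, and the blue pair is spread farther than the red pair in many rows, most in SPAC9E9.02.

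The conjugation genes were the group with the clearest shared role. Their upstream sequence is shown first because 5 of the 7 held an exact TR box, TTCTTTGTT, on either strand within 300 bases before the start of the gene in RefSeq (assembly ASM294v3, its own coordinates). Each line gives a box in capitals with 10 bases on both sides, read 5′ to 3′ on the strand that carries it.
ste11, II:3983239-3983267, plus strand: aaagttgaatTTCTTTGTTtgattttcat
rgs1 box 1, I:679606-679634, plus strand: gctacctgttTTCTTTGTTctgctttctc
rgs1 box 2, I:679665-679693, plus strand: ttgcacaatgTTCTTTGTTccgttaaagt
rgs1 box 3, I:679708-679736, plus strand: atttaatgatTTCTTTGTTtaaaagaaag
mam4 box 1, I:1230433-1230461, minus strand: agtatttgaaTTCTTTGTTatatcgaggt
mam4 box 2, I:1230321-1230349, minus strand: gagtatgattTTCTTTGTTttacttccct
ste7, I:453634-453662, minus strand: attgttgattTTCTTTGTTtgaaaatgga
spk1 box 1, I:3001687-3001715, plus strand: gtcgcgcataTTCTTTGTTtacactaact
spk1 box 2, I:3001562-3001590, plus strand: caaagaaagtTTCTTTGTTaatgtattgc
spk1 box 3, I:3001550-3001578, minus strand: caaagaaactTTCTTTGTTattgtaagtt

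The 10 boxes lay between 42 and 187 bases before the RefSeq starts, and 8 of them read in the direction of the gene. By the starts in the deposited files, all boxes of rgs1, box 2 of mam4 and boxes 2 and 3 of spk1 lie inside the transcript. Before spk1, 2 of the 3 boxes read against it. Among all 51 members with a RefSeq match, the same 5 genes (9.80%) held a box, against 2.01% of 5112 coding genes, so no member outside the conjugation group held it in this window. Of the 31 genes that met the same rule at a ratio of 4 or more, 10 held it (32.3%), and of 125 genes raised by the mirrored rule 3 did (2.40%). A match is a stretch of letters and not a measured site, and these shares were not tested.

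Of the other motifs searched on both strands, STREP (CCCCTC), bound by the zinc finger factor Rst2, stood before ste11, ste7 and mam3, 3 of 51 members (5.88%), against 6 of 125 raised genes (4.80%), 0 of the 31 genes lowered by 4 or more and 1.94% of all coding genes. The core CGNNGATC of the element that Loz1 recognises stood before mfs1 and rpp202, 2 of 51 (3.92%), against 18 of 125 raised genes (14.4%), 0 of the 31 and 3.83% of all. FLEX (GTAAACAAA), the forkhead site, was found before 3 members (5.88%, against 8.80% of the raised genes, 3.23% of the 31 and 6.12% of all), of which the one before spk1 overlaps its box 1. CCAAT stood before 22 (43.1%, against 54.4%, 51.6% and 41.0% of the same sets), and TGACGT, the core bound by Atf1, before 2 (3.92%, against 8%, 9.68% and 6.03%). The starts in RefSeq differ from those in the deposited files by a median of 64 bases for these 51 genes, and by up to 3338, so some windows lie inside a transcript as the files draw it.

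**Figure D2:**
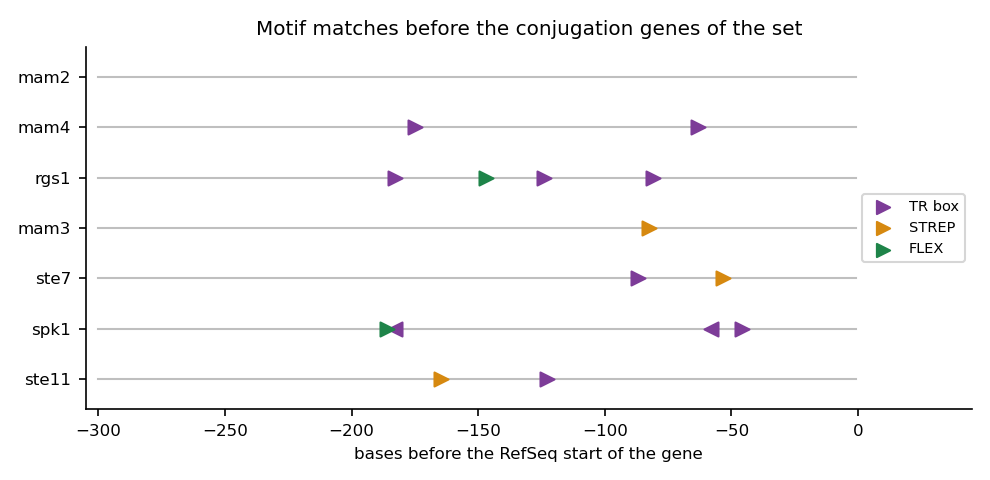
Positions of exact TR box, STREP and FLEX matches in the 300 bases before the RefSeq start of the 7 conjugation genes, with the arrow pointing right where the motif reads in the direction of the gene. TR boxes stand before 5 of the 7, while the windows of mam2 and mam3 hold none. The mam2 window lies wholly inside the transcript as the deposited files draw it, which starts 464 bases before the RefSeq start. Sequence before that earlier start was not searched.

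Ste11 is the transcription factor at the head of the conjugation programme. Its gene had 32.6 and 33.7 FPKM in the labelled deletion libraries, against 75.9 and 74.2 FPKM in wild type. The wild-type pair agreed closely, at a ratio of 0.977, replicate 2 over replicate 1. The ratio of group means, wild type over labelled deletion, was 2.23, the lowest of the 7 conjugation genes.

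The receptor and surface genes of M cells lay further apart. For mam2, which encodes the receptor for the P-factor pheromone on M cells, the labelled deletion libraries had 66.9 and 67.2 FPKM, against 187 and 326 FPKM in wild type. Its ratio of 3.78, wild type over labelled deletion, was the highest of this group. The adhesion protein gene mam3 had 9.40 and 11.03 FPKM in the labelled deletion, against 19.5 and 55.0 FPKM in wild type. In wild type its second library was 2.82 times the first, and mam3 is the conjugation gene that was not called in the fit.

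Mam4 is the methyltransferase that modifies the end of the M-factor pheromone. Its transcript had 37.8 and 34.3 FPKM in the labelled deletion, against 94.0 and 163 FPKM in wild type. Inside the cell, rgs1 encodes the regulator that turns off the G protein of the pheromone receptors, and it stood at 32.6 and 23.2 FPKM, against 75.4 and 124 FPKM. An annotated antisense transcript covers 50.2% of rgs1, and it was listed near 0 in all 4 libraries.

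Spk1, the MAP kinase of the pheromone cascade, had 82.6 and 72.7 FPKM in the labelled deletion libraries, against 180.2 and 208 FPKM in wild type. The gene hem4 covers 71.2% of it on the opposite strand and did not pass the test, with 52.6 and 49.2 FPKM against 53.0 and 38.7 FPKM. The arrestin family adaptor gene ste7 had 9.31 and 8.57 FPKM, against 24.7 and 38.0 FPKM. In 6 of the 7 conjugation genes the second wild-type library was above the first, by 1.15 to 2.82 times, and ste11 was the exception.

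The other genes of mating and pheromone signalling were taken from a list of 25 tested genes, of which 5 are members. Of the 20 that are no members, 6 were lower (30%) and 3 higher (15%), beside 4.37% and 11.9% of all genes tested, with a median log2 difference of -0.34. The lower genes were ste6, gpa1 and 4 of the M-cell markers below. Without either labelled deletion library the counts were 5 lower and 1 higher, and without wild-type replicate 1 or 2 they were 10 and 6, or 7 and 5. The gene ste6, which encodes the exchange factor for Ras, fell by 2.99 on the log2(FPKM + 1) scale (SE 0.22, limma adjusted p = 0.00313), with 8.78 and 6.51 FPKM in the labelled deletion libraries, against 57.0 and 78.6 FPKM in wild type. The gene of the G protein subunit, gpa1, had 71.2 and 64.7 FPKM, against 92.1 and 95.5 FPKM, and its call (limma adjusted p = 0.0423) was lost without either labelled deletion library. The fusion gene cfr1 was higher, by 0.70 (SE 0.12, limma adjusted p = 0.0261), at 52.9 and 51.6 FPKM against 34.3 and 29.3 FPKM, and lost its call without either labelled deletion library too.

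Of 7 M-cell markers 7 were lower in the labelled deletion, beside 4.37% of all genes tested, and the member mam2 is among them. The 6 that are no members summed to 92.5 and 83.9 FPKM in the labelled deletion libraries, against 4814 and 18139 FPKM in wild type. The M-type cassette genes mat1-Mc and mat3-Mc, near-identical copies between which reads cannot be divided surely, were listed at 0 in labelled deletion replicate 1 and at 0.137 and 0.150 FPKM in replicate 2, against 159 to 264 FPKM in wild type. Among the 6, wild-type replicate 2 stood above replicate 1 by 1.42 to 5.98 times.

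P-cell markers were present in all libraries, and 2 of the 4 with values were called higher, beside 11.9% of all genes tested. The 4 with values summed to 73.5 and 67.4 FPKM in the labelled deletion libraries, against 48.7 and 78.2 FPKM in wild type. The overlap of these sums rests on sxa2, a protease gene that was listed here with P cells although M cells are known to use it. Without it the other 3 summed to 60.6 and 55.7 FPKM in the labelled deletion libraries, against 34.4 and 42.3 FPKM in wild type. Both labelled deletion sums were then higher, but map2 differed most among these 3 and map1 lay the other way. The list as written held sxa2. The P-factor gene map2 was higher, at 26.0 and 21.1 FPKM against 2.33 and 2.79 FPKM (limma adjusted p = 0.00288), and so was map3, the receptor for M-factor, at 9.58 and 8.62 FPKM against 4.80 and 3.70 FPKM (limma adjusted p = 0.0425), a call lost after rescaling and without either labelled deletion library. The activator gene map1, at 24.97 and 26.1 FPKM against 27.3 and 35.8 FPKM, and sxa2, at 12.9 and 11.7 FPKM against 14.4 and 35.9 FPKM, did not pass the test. For every member, the mating type of the cultures and the labelled genotype cannot be told apart. That includes mam2, mam3 and mam4, whose products act in M cells. In bulk RNA, fewer M cells and less RNA per M cell cannot be told apart either.

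**Figure D3:**
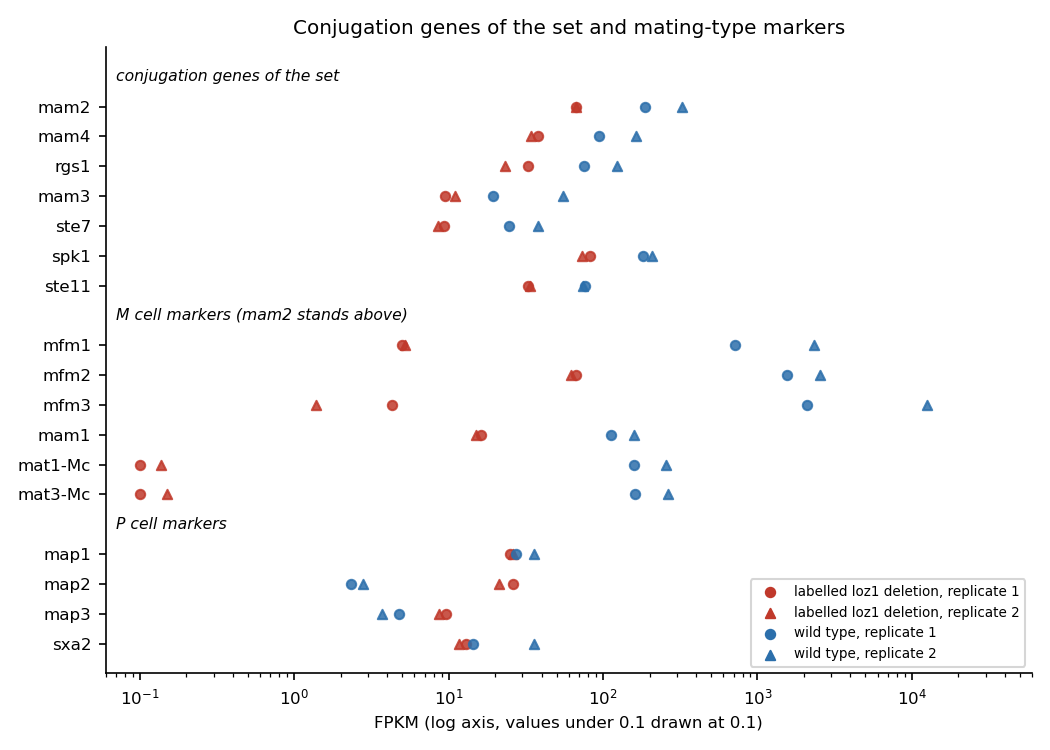
FPKM (log axis) of the 7 conjugation genes of the set and of the M-cell and P-cell markers in the 2 labelled loz1 deletion libraries (red) and the 2 wild-type libraries (blue). The rule held the ratio of the conjugation genes below 4, and the M-cell markers that are no members lie beyond that bound. Map2 and map3 lie higher in the labelled deletion libraries.

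The genes with links to meiosis and recombination were led by mug168, named for induction in meiosis and otherwise uncharacterized, with 438 and 450.3 FPKM in the labelled deletion libraries, against 1299 and 1336 FPKM in wild type. All 4 values agreed closely within their group, and the wild-type pair differed by 1.03 times. Its ratio, wild type over labelled deletion, was 2.96. No other transcript overlaps it.

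Among the members, 3 have roles in recombination. The RecA family mediator gene rad55 had 39.1 and 38.9 FPKM, against 113 and 84.7 FPKM in wild type. For rec6, needed for the breaks that start meiotic recombination, values were 28.1 and 29.7 FPKM in the labelled deletion, against 78.0 and 64.4 FPKM in wild type. Swi5, a partner of the strand exchange proteins, had 58.6 and 57.1 FPKM, against 113 and 149 FPKM.

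The transcripts of rec6 and swi5 are covered completely by a gene on the other strand. Over rec6 lies yox1, a corepressor of cell cycle transcription, which was lower by 0.56 (SE 0.12, limma adjusted p = 0.0431) with 25.4 and 22.8 FPKM, against 37.7 and 34.5 FPKM in wild type. That call was lost without either labelled deletion library. Over swi5 lies the kinetochore gene mis12, which did not pass the test. The remaining members of this group were mug108, meu25, mug42 and mug191, which is annotated as an alpha-1,6-mannanase and placed here by its name. They had ratios of 2.39 to 2.56, wild type over labelled deletion. Of these mug42 had the lowest level of the set, 4.72 and 4.42 FPKM against 13.01 and 11.7 FPKM, and its smallest value rests on an estimated 11.9 fragments.

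Of a list of 26 tested genes of nitrogen starvation and meiosis entry, ste7 is the member. Of the other 25 genes 1 was lower (4%) and 1 higher (4%), beside 4.37% and 11.9% of all genes tested, and their median log2 difference was 0.18. The lower gene was mei2, the RNA-binding protein that starts meiosis, with 63.1 and 57.7 FPKM in the labelled deletion libraries, against 109 and 121 FPKM in wild type (fall of 0.92, SE 0.11, limma adjusted p = 0.0101). The higher gene was dmc1, a meiotic strand exchange gene, at 32.0 and 38.0 FPKM against 19.8 and 15.4 FPKM (limma adjusted p = 0.029). Both calls were lost without either labelled deletion library, and without wild-type replicate 1 or 2 the 25 genes had 3 lower and 6 higher, or 7 and 5.

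The most abundant member was hsp9, which encodes a small heat shock protein. For hsp9 the labelled deletion libraries had 6805 and 6970.4 FPKM, against 18975 and 11506 FPKM in wild type, where the first library was 1.65 times the second. Hsp9 was not called in the fit. The small chaperone gene hsp16 had 4553 and 4879 FPKM, against 10167 and 10250.5 FPKM, and its wild-type pair differed by 1.01 times. The glutathione S-transferase gene gst4 had 45.4 and 47.2 FPKM, against 97.2 and 95.5 FPKM, and a J-domain chaperone gene, SPCC63.13, had 6.03 and 6.67 FPKM, against 16.98 and 11.5 FPKM.

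Both small heat shock genes stand in a list of 24 tested genes of the stress response under Atf1. Of the other 22 genes 4 were lower (18.2%) and 3 higher (13.6%), beside 4.37% and 11.9% of all genes tested, and their median log2 difference was -0.0067, beside 0.131. Without either labelled deletion library 1 was lower and 0 higher, and without wild-type replicate 1 or 2 the 22 genes had 6 lower and 9 higher, or 8 and 5. On the lower side were zym1, a zinc-binding metallothionein, the glutaredoxin gene grx1, the transcription factor gene hsr1 and mug143. Of these zym1 had 266 and 288 FPKM in the labelled deletion libraries, against 11509 and 10834 FPKM in wild type (limma adjusted p = 0.000226). On the higher side were tpx1, pyp2 and pcr1, and the peroxiredoxin gene tpx1 had 4802 and 5222 FPKM, against 1281 and 1827 FPKM (limma adjusted p = 0.014). None of 17 tested heat shock chaperones is a member. In the limma fit 0 were lower and 1 higher (5.88%), beside 4.37% and 11.9% of all genes tested. That call was lost after rescaling and without either labelled deletion library, and without wild-type replicate 1 or 2 there were 6 or 2 lower.

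In central carbon metabolism the member was pdc201, which encodes a pyruvate decarboxylase, the enzyme that opens the path to ethanol. It had 436 and 414 FPKM in the labelled deletion libraries, against 1461 and 1239.5 FPKM in wild type, a ratio of 3.17, wild type over labelled deletion. Of the other 30 tested genes of central carbon and fermentation 4 were lower (13.3%) and 10 higher (33.3%), beside 4.37% and 11.9% of all genes tested. The counts were 1 and 2 without either labelled deletion library, and 6 and 17, or 5 and 18, without wild-type replicate 1 or 2. The genes for the same step went in different directions. The paralogue pdc101 was higher, at 1489 and 1529 FPKM against 474 and 554 FPKM (limma adjusted p = 0.0042), and pdc202 was lower, at 13.8 and 11.9 FPKM against 21.3 and 22.6 FPKM (limma adjusted p = 0.0347), both calls lost without either labelled deletion library.

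The 2 alcohol dehydrogenases of the list lay beyond the bound of 4 that the rule set for pdc201. The zinc enzyme gene adh1 had 30.6 and 67.6 FPKM in the labelled deletion libraries, against 386 and 642 FPKM in wild type (limma adjusted p = 0.0124). The gene adh4 stood at 3320 and 3602 FPKM, against 23.3 and 32.8 FPKM (limma adjusted p = 0.000226). In acetate metabolism the member ach1, an acetyl-CoA hydrolase gene, had 70.4 and 61.6 FPKM, against 155 and 120 FPKM.

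The members isu1, hem14, ppr5 and cmc4, genes of iron and mitochondria, had ratios from 2.20 to 3.81, wild type over labelled deletion. Isu1, the scaffold on which iron-sulfur clusters are built, had 225 and 193 FPKM in the labelled deletion libraries, against 559 and 778 FPKM in wild type. Hem14, which makes protoporphyrin for haem, had 4.28 and 6.07 FPKM, against 10.9 and 14.3 FPKM. The gene lsh1 covers hem14 completely on the opposite strand, with 52.5 and 46.8 FPKM against 45.7 and 33.5 FPKM and no call.

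Of the other 27 tested genes of haem and iron 1 was lower (3.70%) and 4 higher (14.8%), beside 4.37% and 11.9% of all genes tested, with a median log2 difference of 0.19. The lower gene was shu1, a haem uptake protein, with 9.19 and 2.56 FPKM in the labelled deletion libraries, against 55.4 and 30.0 FPKM in wild type (limma adjusted p = 0.0375, lost without labelled deletion replicate 2). The higher genes were hem1, hem12 and hem15 of haem synthesis and sib2 of siderophore synthesis. The first gene of the haem path, hem1, had 176 and 176 FPKM, against 114 and 98.3 FPKM (limma adjusted p = 0.0189). Without labelled deletion replicate 1 the 27 genes had 1 lower and 0 higher, and without replicate 2 they had 0 in either direction. Without wild-type replicate 1 or 2 they had 1 lower and 11 higher, or 4 and 10.

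Ppr5 belongs to the pentatricopeptide repeat proteins, a family that binds mitochondrial RNA. Its gene had 8.85 and 9.68 FPKM in the labelled deletion libraries, against 40.4 and 35.8 FPKM in wild type. It was called lower in the fit, and nothing is read from that call, because the same contrast chose the gene. The small mitochondrial protein gene cmc4, known from budding yeast, had 318 and 417 FPKM, against 894 and 1036 FPKM. Of 43 tested genes of the TCA cycle and respiratory chain none is a member. The fit had 3 lower (6.98%) and 0 higher, beside 4.37% and 11.9% of all genes tested. Lower genes numbered 6 after rescaling, 1 without either labelled deletion library, and 24 or 12 without wild-type replicate 1 or 2.

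Among transporters, mfs1 of the major facilitator family had 48.4 and 46.9 FPKM in the labelled deletion libraries, against 195 and 138 FPKM in wild type. The cysteine transporter gene SPCPB1C11.03 had 12.95 and 13.01 FPKM, against 34.3 and 34.3 FPKM, the closest wild-type pair of the set. The amino acid permease gene per1 had 9.13 and 9.28 FPKM, against 36.2 and 17.2 FPKM, and was not called. The amino acid list of per1 held 42 other tested genes. Of these 0 were lower and 24 higher (57.1%), beside 4.37% and 11.9% of all genes tested. The direction of per1 was not that of the called genes. The higher genes numbered 15 after rescaling, 0 without either labelled deletion library, and 35 or 33 without wild-type replicate 1 or 2. Asparagine synthetase, asn1, had 961 and 968 FPKM against 441 and 381 FPKM (limma adjusted p = 0.0063).

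The kinase gene ppk33 had the highest ratio of the set, 3.93, wild type over labelled deletion. Its values were 8.13 and 7.89 FPKM in the labelled deletion libraries, against 21.9 and 46.9 FPKM in wild type. Lkh1, a kinase of the LAMMER family, had 7.89 and 6.94 FPKM, against 20.3 and 14.01 FPKM. The PARP-type zinc finger gene hpz2 had 14.5 and 10.6 FPKM, against 29.6 and 29.0 FPKM. These 3 genes are expressed at low levels, under 50 FPKM in wild type.

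Among the genes of RNA and translation, rpp202 encodes an acidic protein of the ribosomal stalk. It had 2492 and 2498 FPKM in the labelled deletion libraries, against 4343 and 9499 FPKM in wild type, where replicate 2 was 2.19 times replicate 1, and it was not called. It lies on chromosome II at 2127990 to 2128518, between mat1-Mc and mat3-Mc. The wild-type libraries disagreed in the same direction for the M-cell markers and for 30 of the 52 members, and no link was tested. The genes for the tRNA enzymes gon7 and trm44, the splicing assembly factor gem6, the annotated serine protease htr11 and an amidotransferase, SPAC13C5.04, had ratios from 2.07 to 2.59, and omt2, a dehydratase gene, had 2.02. SPAC13C5.04 and omt2 were not called.

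Of the 13 genes grouped as having no annotated function, prl65 was the most abundant. It had 3340.0 and 3186 FPKM in the labelled deletion libraries, against 14294 and 9410.3 FPKM in wild type. SPAC1071.13 had 24.0 and 23.7 FPKM, against 67.3 and 89.8 FPKM. SPCC1393.12 had 1152 and 1240.3 FPKM, against 2752 and 2240.5 FPKM. Of this group only prl65 and SPCC1393.12 exceeded 1000 FPKM in wild type.

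The groups came close in 2 of the uncharacterized genes. SPAC9E9.02 had 31.3 and 29.9 FPKM in the labelled deletion libraries, against 31.9 and 110.3 FPKM in wild type. SPAC664.13 had 17.7 and 15.5 FPKM, against 18.8 and 52.7 FPKM. In both, wild-type replicate 2 alone stood clear of the labelled deletion, and in SPAC32A11.02c, with 217 and 231 FPKM against 779 and 257 FPKM, wild-type replicate 1 did. None of the 3 was called.

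Close to the lower bound of the rule, omt2, gst4 and ach1 stood just inside, at ratios of 2.02, 2.06 and 2.07, wild type over labelled deletion. Just outside were sua1, the sulfate adenylyltransferase gene, at 1.97, mug121 at 1.98 and SPAC2E1P3.01 at 1.99. Near the upper bound ppk33, ppr5 and mam2 were inside at 3.93, 3.81 and 3.78, and nab3, shk2 and cdb4 outside at 4.12, 4.16 and 4.30. Of the members 31 had ratios below 2.5, 9 from 2.5 to below 3, and 12 from 3. Of 4685 coding genes that met the limits of level and place, 917 had both labelled deletion values below both wild-type values, of which 834 had a ratio under 2 and 31 a ratio of 4 or more.

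**Figure D4:**
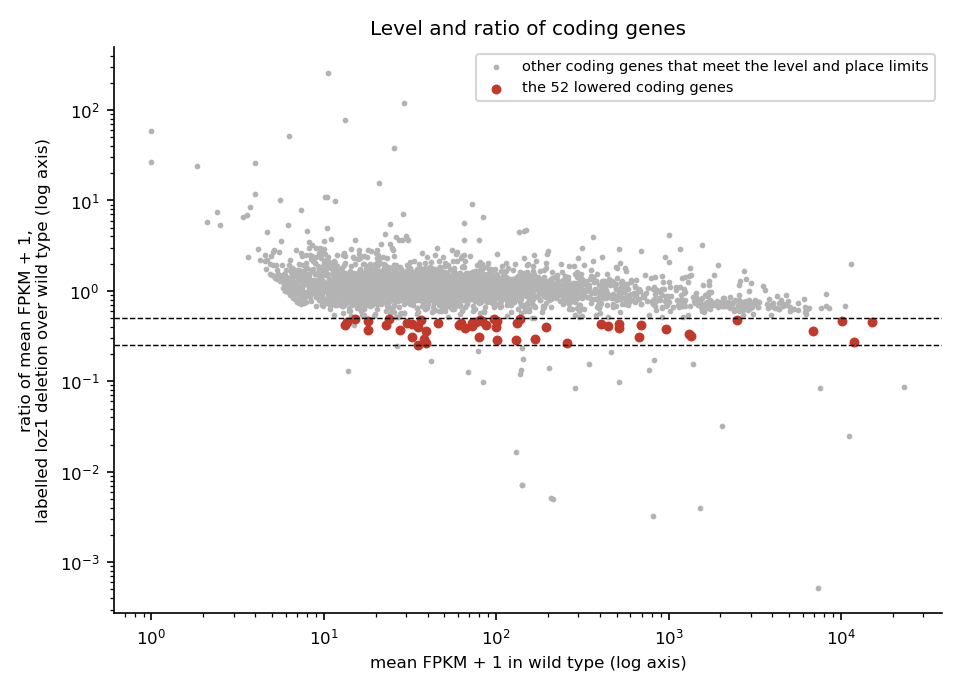
Ratio of mean FPKM + 1, labelled loz1 deletion over wild type, against mean FPKM + 1 in wild type (both log axes) for the 4685 coding genes that meet the limits of level and place. Dashed lines mark the bounds of the rule, and the 52 genes (red) lie between them over the range of wild-type levels from 12.3 to 15241 FPKM.

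The members shared features that the rule did not use. A single exon was annotated for 42 of 52 (80.8%), against 49.7% of the 4685 coding genes. The 127 genes raised by the mirrored rule, with labelled deletion over wild type from 2 to below 4, were single-exon in 77.2%, and those lowered by 4 or more in 71.0%, so the share was high on both sides. Proteins annotated as uncharacterized made up 11 of the members (21.2%), 7.87% of the raised genes, 22.6% of the genes lowered by 4 or more and 5.93% of all 4685. The median transcript length was 1598 nt, against 1961 nt for the raised genes, 958 nt for those lowered by 4 or more and 1805 nt for all 4685. These shares are descriptions and were not tested.

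The spread of the wild-type pair is given as a description, because those values took part in the choice of genes and a single high wild-type library raises the group mean that the rule reads. The higher wild-type value was over 1.5 times the lower in 19 of 52 (36.5%), against 9.35% of the 4685 genes, 28.4% of the raised genes and 67.7% of those lowered by 4 or more. For the labelled deletion pair this held for 1 member (1.9%), SPAC13C5.04, at 35.0 and 18.8 FPKM. The same held for 0.70% of the 4685 genes, 1.6% of the raised genes and 19.35% of those lowered by 4 or more. Wild-type replicate 2 was above replicate 1 in 30 members (57.7%), against 46.5% of the raised genes, 64.5% of those lowered by 4 or more and 38.5% of the 4685. The widest wild-type pairs were those of SPAC9E9.02 (3.46 times), SPAC32A11.02c (3.03 times) and mam3 (2.82 times), and the closest those of SPCPB1C11.03, hsp16 and gst4 (1.001 to 1.018 times).

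**Figure D5:**
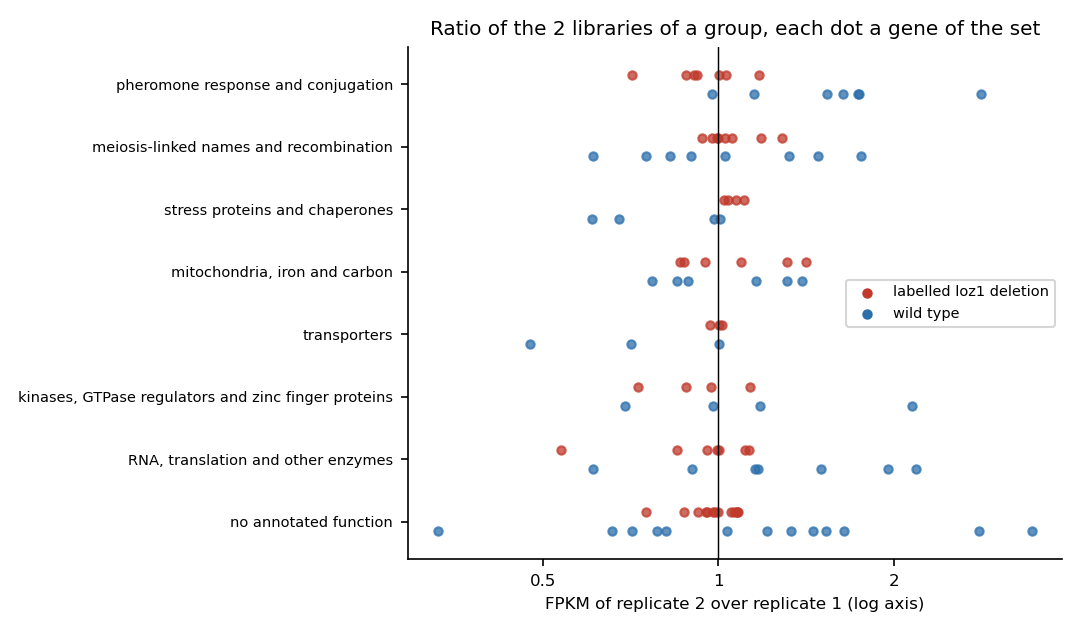
FPKM of replicate 2 over replicate 1 (log axis) for each gene of the set in the labelled loz1 deletion pair (red) and the wild-type pair (blue), by role. The blue dots of the conjugation genes lie right of 1 except for ste11, while those of the stress genes lie at or left of 1 apart from hsp16.

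Another transcript covered 11 members completely (21.2%), against 13.4% of the raised genes, 22.6% of the genes lowered by 4 or more and 6.23% of the 4685. At least 50% was covered in 19 members (36.5%), against 27.6%, 38.7% and 21.9% of the same sets, and 14 members had no overlap (26.9%, against 35.4%, 48.4% and 35.0%). The strand setting of the authors' counting is not given, so reads of a gene and of its partner on the other strand cannot be told apart. The 55 partners that are no members were described by the same fit. Of 50 tested, 8 were lower (16%) and 5 higher (10%), beside 4.37% and 11.9% of all genes tested, with a median log2 difference of -0.09, beside 0.131. The 13 calls became 2 without either labelled deletion library, and 28 or 25 without wild-type replicate 1 or 2.

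Partners went both ways. Opposite SPAC13C5.04, over 96.7% of it, SPNCRNA.645 had 359 and 388 FPKM in the labelled deletion libraries, against 833 and 564 FPKM in wild type, and was lower (limma adjusted p = 0.0493). The RNA that covers gem6, SPNCRNA.1075, was lower too, at 27.0 and 21.2 FPKM against 37.4 and 42.5 FPKM (limma adjusted p = 0.0451). Over gst4 lies wtf11, of a family of spore killer genes, which was higher at 22.7 and 20.1 FPKM, against 6.80 and 10.4 FPKM (limma adjusted p = 0.0291). These 3 calls were lost without either labelled deletion library.

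Antisense to SPAC1071.13, over 32.6% of it, SPNCRNA.945 had 8.64 and 11.9 FPKM in the labelled deletion pair, and was listed near 0 in the wild-type pair (limma adjusted p = 0.00378). Mug108, whose transcript is covered completely by others, had 177 and 228 FPKM, against 376 and 661 FPKM in wild type. SPAC29A4.22, which overlaps it, had 9.30 and 8.30 FPKM and was listed at or near 0 in wild type (limma adjusted p = 0.00349).

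Of the nearest coding genes on both sides 94 were tested, of which 7 were lower (7.45%) and 8 higher (8.51%), beside 4.37% and 11.9% of all genes tested, with a median log2 difference of 0.05, beside 0.131. The 15 calls were 9 after rescaling, 0 without either labelled deletion library, and 39 or 36 without wild-type replicate 1 or 2. The eisosome gene pil2, 437 bp from rad55, had 96.3 and 105 FPKM in the labelled deletion libraries, against 1069 and 472 FPKM in wild type (limma adjusted p = 0.0153). Next to cmc4, the cell wall enzyme gene gas1 was higher at 53.0 and 60.6 FPKM, against 13.3 and 25.2 FPKM (limma adjusted p = 0.033). Hsp16 and SPBC3E7.17, 803 bp apart, were the neighbouring members that do not overlap. SPBC3E7.17 had 199 and 150 FPKM, against 398 and 411 FPKM, and its smallest value rests on an estimated 29.9 fragments. SPNCRNA.540 and SPNCRNA.1541 each cover it completely on the same strand, so its reads and theirs cannot be told apart. By chromosome, 31 members lay on I (59.6%, against 46.0% of the 4685 genes), 13 on II and 8 on III.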

How the data were processed

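Per the submitters' processing notes, the authors ran HISAT2, SAMtools, Cufflinks and Cuffdiff on the build ASM294v2. Not given in the sources used here are versions, the strand setting and how reads with several matches were treated. The deposited files list FPKM with lower and upper bounds for 7093 transcripts of 7092 genes in each of 4 libraries, per the file headers. The depth was estimated from the widths of those bounds, and the precision this gives covers counting error only. FPKM was summed per gene and compared as deposited.

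A test on log2(FPKM + 1) took every gene whose mean reached 1 FPKM and whose longest transcript reached 200 nt. This is a scale that understates the change of low genes. The tool was limma 3.58.1 in R 4.3.3 (empirical Bayes prior with intensity trend, Benjamini-Hochberg adjustment, threshold 0.05, n = 2 per group). The fit was tested on simulated data. Tables and figures were made with Python 3.11.15, pandas 2.3.3, NumPy 2.4.6 and matplotlib 3.10.9.

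The members, gene lists, roles and markers were chosen with earlier results of these data known. Genes were named by their ratio, level, list membership, distance from the bounds, overlap and wild-type spread, with called partners, neighbours and list genes of smallest p. Other named members were chosen after their values were seen. Gene names come from RefSeq, which matched 6746 genes and 51 members and is in a later release of the assembly (ASM294v3). Chromosome lengths are those used in the rule, and 99.8% of 5296 introns of the files had splice bases in its sequence. Coordinates of genes are those of the files. Motif windows use RefSeq coordinates and sequence throughout. Alternatives covered scaling, pseudocount, filters, prior, replicate block, bounds of the rule and each library left out. The values of 1 member are not reported here.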

Additional observations from a re-analysis of the deposited data

How the results depend on the processing

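The rule found 72 genes after median-ratio rescaling (49 shared with the 52), 47 to 53 under other pseudocounts, 49 with geometric means, 50 to 54 under other level limits, 57 with no limit at the ends, and 51 to 60 without a library in turn, of which 36 to 49 were shared. Without a filter on low values 23 members, 176 lower genes, 4 overlap partners and 8 neighbours were called. Without the trend 6 partners and 8 neighbours were called, and 203 genes were lower and 521 higher. Rescaling left 422 higher genes and 9 neighbours.

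Without a library in turn, calls ranged from 1 to 50 members, 40 to 885 lower genes, 73 to 2131 higher genes, 2 to 28 partners, 0 to 39 neighbours and 21 to 306 of the list genes (147 with all libraries). With 1 labelled deletion library left, its spread is assumed to be that of the wild-type pair, and with 1 wild-type library left that of the labelled deletion pair. Replicate numbers are not stated to pair the cultures, and deviations of same-numbered libraries correlated at -0.128 over 5798 genes. With the replicate block 42 members were called and 6 partners, 224 genes were lower and 538 higher. Crossed pairing, chosen after seeing the data, gave 49 members, 391 lower and 856 higher genes. With 2 libraries a group, the spread between the wild-type libraries limits the precision of single genes.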
